A study of Mus musculus with 12 samples.

Results

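Wt1, Lmx1b, Tcf21, Foxc1 and Foxc2, the transcription factors that define the podocyte, were followed in glomerular RNA of 12 mice. They were chosen by gene symbol, and all 5 are among the 14096 genes of the deposited tables. Every animal was a male eNOS-/- mouse on a C57BL/6J background, so the nondiabetic controls also lacked endothelial nitric oxide synthase. Streptozotocin (STZ, 50 mg/kg daily for 5 days) was injected at 8 weeks of age to make mice diabetic, and citrate buffer was injected in the nondiabetic mice. Arctigenin (ATG), a plant lignan that the study tested in diabetic kidney disease, was gavaged at 40 mg/kg daily for 8 weeks from week 10 after induction, and the other mice were given 5% DMSO as vehicle. Each of the 4 groups held 3 mice: nondiabetic with vehicle (Con_DMSO), nondiabetic with ATG (Con_ATG), diabetic with vehicle (DM_DMSO) and diabetic with ATG (DM_ATG). Mice are numbered as in the labels, and the mouse without a number in each nondiabetic group is called mouse 3. The comparisons asked how diabetes and ATG changed these transcripts in the glomerulus.

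Podocytes are the epithelial cells that wrap the glomerular capillaries and hold the slit diaphragm, and they do not normally divide. WT1 is a zinc finger protein whose antibody is the usual stain for counting podocyte nuclei. LMX1B is a LIM-homeodomain protein that is mutated in nail-patella syndrome, TCF21 is a basic helix-loop-helix protein that pairs with E proteins, and FOXC1 and FOXC2 are closely related forkhead proteins. All 5 act in podocyte development and are kept on in the mature cell, where they maintain genes of the slit diaphragm, the cytoskeleton and the glomerular basement membrane. In the kidney, WT1 is also known from parietal epithelial cells and TCF21 from stromal cells.

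On mm10, Wt1 (Entrez 22431) lies at chr2:105126529-105173614 on the plus strand. Lmx1b (Entrez 16917) lies at chr2:33564536-33640511 on the minus strand. Tcf21 (Entrez 21412) lies at chr10:22817275-22820128 on the minus strand, inside the span of Gm10824, a long noncoding RNA that RefSeq places at chr10:22813381-22821942. Foxc1 (Entrez 17300) lies at chr13:31806646-31810635 and Foxc2 (Entrez 14234) at chr8:121116171-121118894, both on the plus strand. Whether reads were counted by strand is not given in the sources used here, so reads of Tcf21 and of an RNA opposite to it could not be told apart.

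RefSeq promoter windows on GRCm38.p6, from 250 bases before to 50 bases after the start, were found for 3 of the 5 genes. They are shown because the 5 transcripts moved together from mouse to mouse, as described below. Each was searched on both strands for 6 short motifs: CANNTG (the E-box read by basic helix-loop-helix proteins), GTAAACA (forkhead), TAATTA (LIM-homeodomain), GCGGGGGCG (WT1 and EGR), CCAAT and GGGCGG (GC box). Capitals mark the matches. The windows are Lmx1b (chr2:33641049-33641348, minus strand), Tcf21 (chr10:22820094-22820393, minus strand) and Foxc1 (chr13:31806396-31806695, plus strand), each printed 5′ to 3′ on the gene's own strand.
Lmx1b: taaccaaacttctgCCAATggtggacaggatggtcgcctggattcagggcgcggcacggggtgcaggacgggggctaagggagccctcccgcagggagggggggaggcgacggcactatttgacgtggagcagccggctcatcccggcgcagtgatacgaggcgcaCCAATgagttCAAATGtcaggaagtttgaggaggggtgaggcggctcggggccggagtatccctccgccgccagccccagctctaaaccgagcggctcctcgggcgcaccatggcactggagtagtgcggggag
Tcf21: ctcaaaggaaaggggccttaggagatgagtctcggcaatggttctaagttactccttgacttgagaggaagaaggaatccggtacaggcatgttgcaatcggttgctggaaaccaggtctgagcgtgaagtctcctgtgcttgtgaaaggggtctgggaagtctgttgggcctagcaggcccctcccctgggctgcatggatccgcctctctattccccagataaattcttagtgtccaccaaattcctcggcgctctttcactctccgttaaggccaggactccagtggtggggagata
Foxc1: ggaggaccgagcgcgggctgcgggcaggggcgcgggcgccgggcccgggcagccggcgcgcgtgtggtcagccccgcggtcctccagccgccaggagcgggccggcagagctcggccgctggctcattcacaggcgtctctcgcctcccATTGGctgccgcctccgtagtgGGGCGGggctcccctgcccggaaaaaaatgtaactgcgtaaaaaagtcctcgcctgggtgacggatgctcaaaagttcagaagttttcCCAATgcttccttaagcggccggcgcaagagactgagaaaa
The window of Lmx1b held 1 E-box, 74 bases before the start, and CCAAT at 236 and 84 bases before it. The window of Foxc1 held CCAAT 9 bases after the start, the same letters on the opposite strand 101 bases before it, and a GC box 79 bases before it. The window of Tcf21 held none of the 6 motifs, which says only that these letters are not in it. Among all 32851 windows, 72.3% held an E-box, 37.4% CCAAT, 35.7% a GC box, 5.29% TAATTA, 3.65% GTAAACA and 2.91% GCGGGGGCG. None of the motifs was common to the 3 genes. GC content was 65.7% for Lmx1b, 53.3% for Tcf21 and 67.3% for Foxc1.

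The 12 libraries held 23.6 to 29.8 M (mega) reads on listed genes, and mice of the same group correlated with r of 0.972 to 0.994. The deposited value is a log2 of reads scaled by 1 factor per library, so 1 unit is a doubling, and values of different genes are comparable only after division by transcript length. The defining podocyte markers Nphs1, Podxl and Synpo ranged from 11.79 to 18.50 on this scale, so podocyte RNA was present in every library. The tubule markers Slc34a1, Lrp2 and Umod were also high, from 10.30 to 18.13, so none of the preparations was free of tubule RNA. Mouse 3 of the ATG-treated nondiabetic group had the lowest value of Nphs1, Podxl and Synpo among the 12 mice.

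Per kilobase of transcript, the order of the members was Wt1, Tcf21, Foxc2, Lmx1b and Foxc1. The means over the 12 mice were 4790 scaled reads per kilobase for Wt1 and 3400 for Tcf21. The corresponding means were 1580 for Foxc2, 828 for Lmx1b and 686 for Foxc1. Each of the neighbours down to Lmx1b kept its place in 12 of 12 mice, and Wt1 exceeded Tcf21 by 1.11 to 1.75-fold within a mouse. Lmx1b exceeded Foxc1 in 10 of 12 mice, with ratios of 0.781 to 1.58, so the last pair did not differ beyond its spread. The listed transcript of Lmx1b is 1219 bases long, which sets its value on this scale. In raw reads the lowest count of any member in any mouse was 401, for Lmx1b, so the spread between mice and not read sampling limited the precision.

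**Figure D1:**
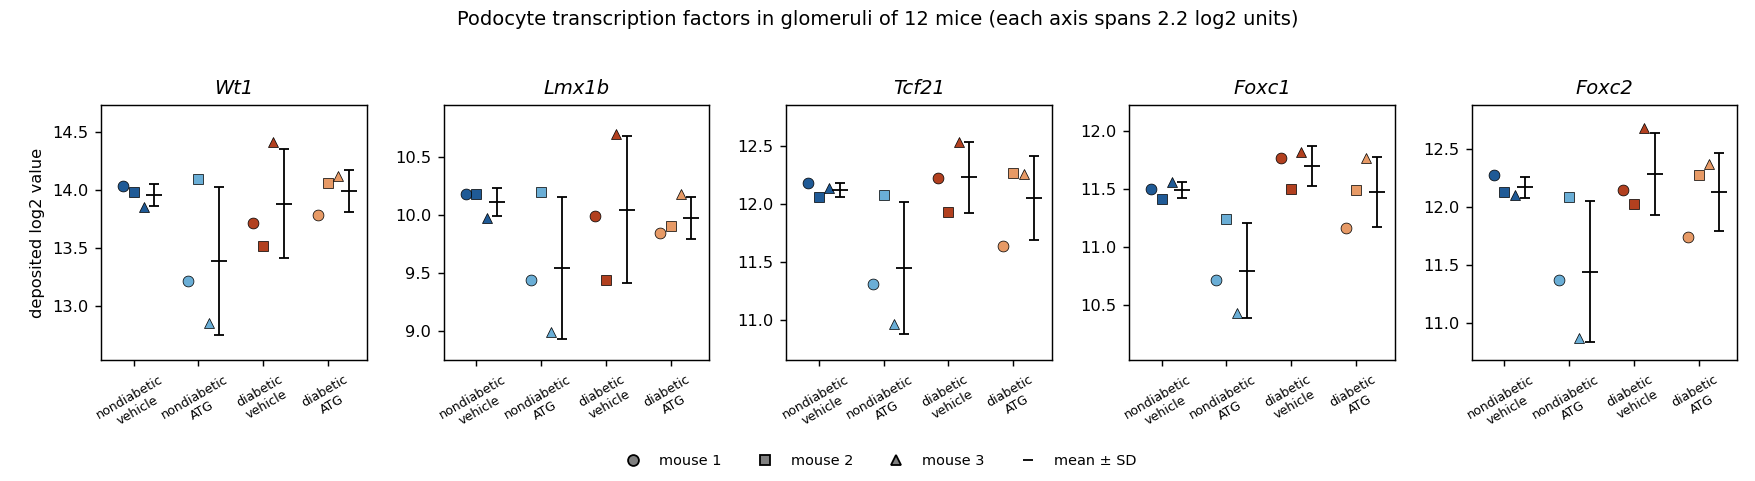
Deposited log2 value of each member (vertical axes, 1 panel a gene, each spanning 2.2 log2 units) in the 4 groups (horizontal axes). Points are single mice (circle, mouse 1, square, mouse 2, triangle, mouse 3) and the black mark is the mean ± SD of 3 mice. In each panel, mice 1 and 3 of the ATG-treated nondiabetic group lie below the vehicle-treated nondiabetic mice, mouse 2 of that group lies near them, and diabetic mouse 3 with vehicle is the highest point.

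In vehicle-treated nondiabetic mice, Wt1 was at 14.03, 13.98 and 13.85 on the log2 scale. In ATG-treated nondiabetic mice it was at 13.21, 14.09 and 12.85. The vehicle-treated diabetic mice had 13.71, 13.52 and 14.41, and the ATG-treated diabetic mice 13.78, 14.06 and 14.12. Both nondiabetic groups overlapped, since ATG-treated mouse 2 exceeded all 3 vehicle-treated mice while mice 1 and 3 lay below them.

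Lmx1b was at 10.18, 10.18 and 9.97 in the vehicle-treated nondiabetic mice. With ATG, the nondiabetic values were 9.44, 10.20 and 8.99. In diabetes they were 9.99, 9.44 and 10.70 with vehicle and 9.84, 9.90 and 10.18 with ATG. The vehicle-treated diabetic and the ATG-treated nondiabetic mice were the most spread for this gene, with SDs of 0.63 and 0.61. Diabetic mouse 2 with vehicle lay as low as an ATG-treated nondiabetic mouse.

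Tcf21 was at 12.18, 12.06 and 12.14 in the vehicle-treated nondiabetic group and at 11.31, 12.08 and 10.97 in the ATG-treated nondiabetic group. The diabetic mice had 12.23, 11.93 and 12.54 with vehicle and 11.64, 12.27 and 12.26 with ATG. The lowest vehicle-treated nondiabetic value, 12.06, was just under that of ATG-treated mouse 2, which kept these groups from separating.

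Foxc1 was at 11.50, 11.42 and 11.56 in vehicle-treated nondiabetic mice. Its values in ATG-treated nondiabetic mice were 10.72, 11.24 and 10.43, all below that group. The diabetic values were 11.77, 11.50 and 11.82 with vehicle and 11.17, 11.49 and 11.77 with ATG. Only mouse 1 of the ATG-treated diabetic group, at 11.17, fell within the range of the ATG-treated nondiabetic mice.

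Foxc2 was at 12.27, 12.13 and 12.10 in vehicle-treated nondiabetic mice and at 11.37, 12.08 and 10.87 in ATG-treated nondiabetic mice. The diabetic mice were at 12.14, 12.02 and 12.68 with vehicle and at 11.74, 12.27 and 12.37 with ATG. The nondiabetic groups separated, although by only 0.02 between the vehicle-treated mouse at 12.10 and the ATG-treated mouse at 12.08. For each of the 5 members the lowest of the 12 mice was mouse 3 of the ATG-treated nondiabetic group and the highest was mouse 3 of the vehicle-treated diabetic group. In bulk RNA of this kind, fewer podocytes and less RNA per podocyte cannot be told apart.

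**Figure D2:**
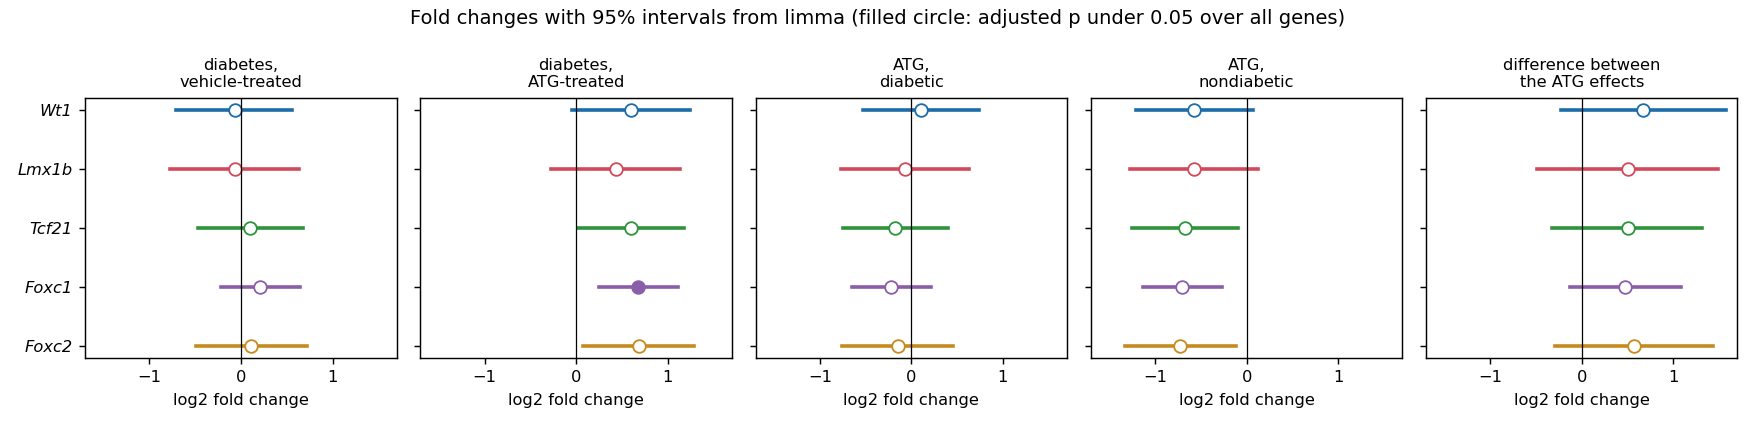
Log2 fold change of each member (horizontal axes) with its 95% interval from limma, for the 4 comparisons of groups and for the difference between the ATG effects in diabetic and nondiabetic mice. Filled circles mark an adjusted p under 0.05 over all listed genes. The only filled circle is Foxc1 for diabetes in ATG-treated mice, at 0.68 with an interval of 0.25 to 1.11.

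Diabetes in vehicle-treated mice changed none of the 5 transcripts past the threshold, an adjusted p under 0.05 in limma over 14096 genes. The log2 fold change of Wt1 was -0.07 (SE 0.29, 95% interval -0.71 to 0.56, adjusted p = 0.883) and that of Lmx1b was -0.07 (interval -0.77 to 0.63, adjusted p = 0.900). For Tcf21 it was 0.10 (interval -0.47 to 0.68, adjusted p = 0.810) and for Foxc2 0.11 (interval -0.49 to 0.72, adjusted p = 0.806). Foxc1 had the largest value, 0.21 (SE 0.19, interval -0.22 to 0.64, adjusted p = 0.480). The intervals leave room for changes of about 0.5 log2 units in either direction for each gene but Foxc1, so these data do not show the levels to be equal. In the same comparison 10.2% of all genes were called higher and 8.63% lower.

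Diabetes was also compared between ATG-treated mice. Here Foxc1 was called higher in the diabetic mice, with a log2 fold change of 0.68 (SE 0.19, adjusted p = 0.0157, 1.60-fold), and the other members were not called. Foxc2 was at 0.69 (interval 0.08 to 1.29, adjusted p = 0.0614) and Tcf21 at 0.60 (interval 0.02 to 1.18, adjusted p = 0.0813). The values were 0.60 for Wt1 (interval -0.04 to 1.24, adjusted p = 0.110) and 0.43 for Lmx1b (interval -0.27 to 1.13, adjusted p = 0.287). The 1 call among 5 members stands beside 25.9% of all genes called higher and 20.8% called lower, so the share is near the background. For none of the 5 did all ATG-treated diabetic mice lie above all ATG-treated nondiabetic mice, an order shown by 30.5% of all genes. The call of Foxc1 was lost with only the groups compared in the model, at an unchanged 0.68 (SE 0.23, adjusted p = 0.0515). It was lost as well with the mouse numbers of the labels as a block (0.50, adjusted p = 0.0931). With the podocyte (0.19, adjusted p = 0.382) or tubule (0.13, adjusted p = 0.865) mean as a covariate the value itself fell, and the call was lost. It was also lost when mouse 1 (adjusted p = 0.0509) or mouse 3 (0.0636) of the ATG-treated nondiabetic group was left out. The same held for mouse 3 of the ATG-treated diabetic group (0.0667). Calls were also gained with 1 mouse left out, for Foxc2 in 3 such fits, Tcf21 in 2 and Wt1 in 1. Without mouse 2 of the ATG-treated nondiabetic group 4 members were called, beside 7451 of all 14096 genes in either direction.

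ATG in nondiabetic mice gave a negative difference for each member, and none was called. Wt1 and Lmx1b were both at -0.57 (adjusted p = 0.202 and 0.241 in limma), and Tcf21 was at -0.67 (interval -1.25 to -0.09, adjusted p = 0.126). The forkhead genes were at -0.70 for Foxc1 (interval -1.13 to -0.27, adjusted p = 0.0612) and -0.73 for Foxc2 (interval -1.33 to -0.12, adjusted p = 0.119). Among all genes 4.51% were called lower and 0.709% higher. All ATG-treated mice lay below all vehicle-treated mice for 2 members, Foxc1 and Foxc2 (two-sided exact permutation p = 0.1, the smallest that 3 against 3 allows), beside 20.0% of all genes. The size of these values rested on single libraries. Without mouse 2 of the ATG-treated group all 5 members were called lower, with log2 fold changes of -1.04 to -0.89 and adjusted p of 0.00514 to 0.0486. Without mouse 3 of that group the values were nearer 0, at -0.30 for Wt1, -0.29 for Lmx1b, -0.43 for Tcf21, -0.51 for Foxc1 and -0.44 for Foxc2, with adjusted p of 0.196 to 0.630. Over all genes the number called went from 736 to 3531 without mouse 2 of the ATG-treated nondiabetic group. Each other mouse but mouse 2 of the vehicle-treated diabetic group moved that number by over 1.5 times when left out, to between 60 and 1420.

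ATG in diabetic mice left the 5 members within 0.22 log2 units of the vehicle-treated diabetic mice. The values were 0.10 for Wt1, -0.07 for Lmx1b, -0.18 for Tcf21, -0.22 for Foxc1 and -0.15 for Foxc2, each with an adjusted p of 1. The narrowest interval was that of Foxc1, -0.65 to 0.21, and the widest that of Lmx1b, -0.77 to 0.63. In limma 0% of all genes were called here, and 636 had an unadjusted p under 0.05, none of them a member. The difference between the ATG effects in diabetic and nondiabetic mice was positive for each member, from 0.47 for Foxc1 to 0.67 for Wt1, with adjusted p of 0.479 to 0.613 and 0.546% of all genes called. The negative values of ATG in nondiabetic mice were therefore not shown to differ from those in diabetic mice.

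The members followed the podocyte markers of the same mouse closely. The mean of 26 podocyte markers, a list that holds no transcription regulator, reached 13.85 ± 0.058 (SD, n = 3) with vehicle and 13.27 ± 0.50 with ATG in nondiabetic mice. It was 13.97 ± 0.32 in diabetic mice with vehicle and 13.90 ± 0.11 with ATG. Across the 12 mice, its correlation with the members was 0.951 for Wt1, 0.913 for Lmx1b, 0.957 for Tcf21, 0.933 for Foxc1 and 0.974 for Foxc2. These are descriptions over mice that share library preparation and depth with the markers. Subtracting the marker mean lowered the SD over 12 mice from between 0.42 and 0.48 to between 0.13 and 0.19.

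**Figure D3:**
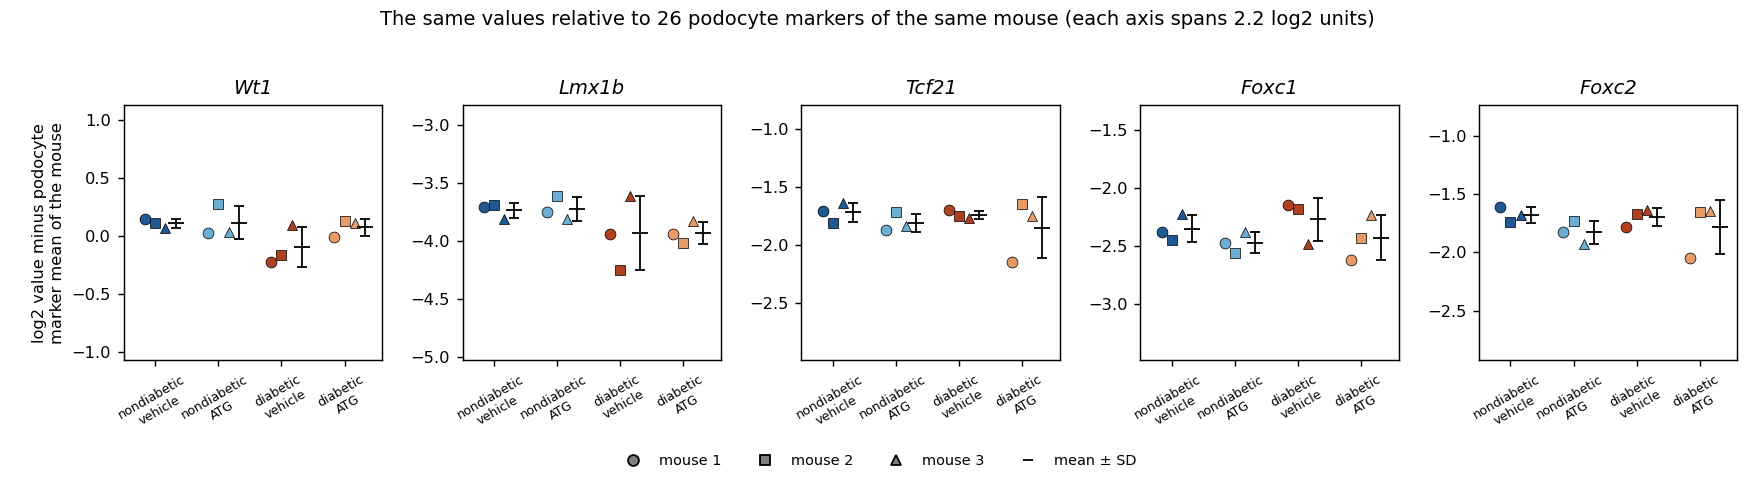
Each member's log2 value minus the mean of 26 podocyte markers of the same mouse (vertical axes, each spanning 2.2 log2 units as in the plot of the deposited values) in the 4 groups. Points are mice and the black mark is the mean ± SD of 3 mice. The low ATG-treated nondiabetic mice come back to the level of the others, while 2 vehicle-treated diabetic mice are the lowest points for Wt1 and both diabetic groups average -3.93 for Lmx1b, against -3.73 and -3.72 in nondiabetic mice.

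Relative to these markers, the group differences of the members lay between -0.21 and 0.17 log2 units, and between -0.36 and 0.27 when 1 mouse was left out. Wt1 was at -0.20 for diabetes in vehicle-treated mice (exact permutation p = 0.2, 0.8 after adjustment over 20 tests) and at 0.17 for ATG in diabetic mice (exact p = 0.2, 0.11 to 0.27 with 1 mouse left out). Lmx1b was at -0.20 for diabetes with vehicle (exact p = 0.4, -0.36 to -0.04 with 1 mouse left out) and at -0.21 for diabetes with ATG, the 1 case of 20 in which the groups separated (exact p = 0.1, the smallest possible, 0.8 adjusted). Over all genes and the same 4 comparisons the groups separated in 24.9% of cases on this scale. With 4 of the 26 markers subtracted instead, the groups separated in 6 of the 20 cases, 3 for Wt1 and 3 for Lmx1b, beside 21.1% over all genes, and nothing is read from these counts. For ATG in nondiabetic mice, Wt1 and Lmx1b were both at 0.01, and Tcf21, Foxc1 and Foxc2 at -0.09, -0.12 and -0.15. The negative values of ATG in nondiabetic mice thus shrank to at most 0.15 in size once podocyte markers were subtracted.

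With the podocyte mean as a term in limma, 1 of the 5 members was called lower in each comparison of diabetes. Wt1 was called lower in vehicle-treated diabetic mice, at -0.24 (SE 0.063, adjusted p = 0.0163), where 14.8% of all genes were called lower. In ATG-treated mice it was at -0.24 as well (SE 0.084, adjusted p = 0.0638). Lmx1b was called lower in ATG-treated diabetic mice, at -0.49 (SE 0.13, adjusted p = 0.0255), where 6.97% of all genes were called lower, and its sign there was opposite to that without the covariate. With vehicle, Lmx1b was at -0.25 (SE 0.097, adjusted p = 0.0727). Tcf21, Foxc1 and Foxc2 were between -0.12 and 0.19 for diabetes in this fit and were not called. The marker mean itself differed between groups, and with 12 mice the 2 cannot be fully separated.

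**Figure D4:**
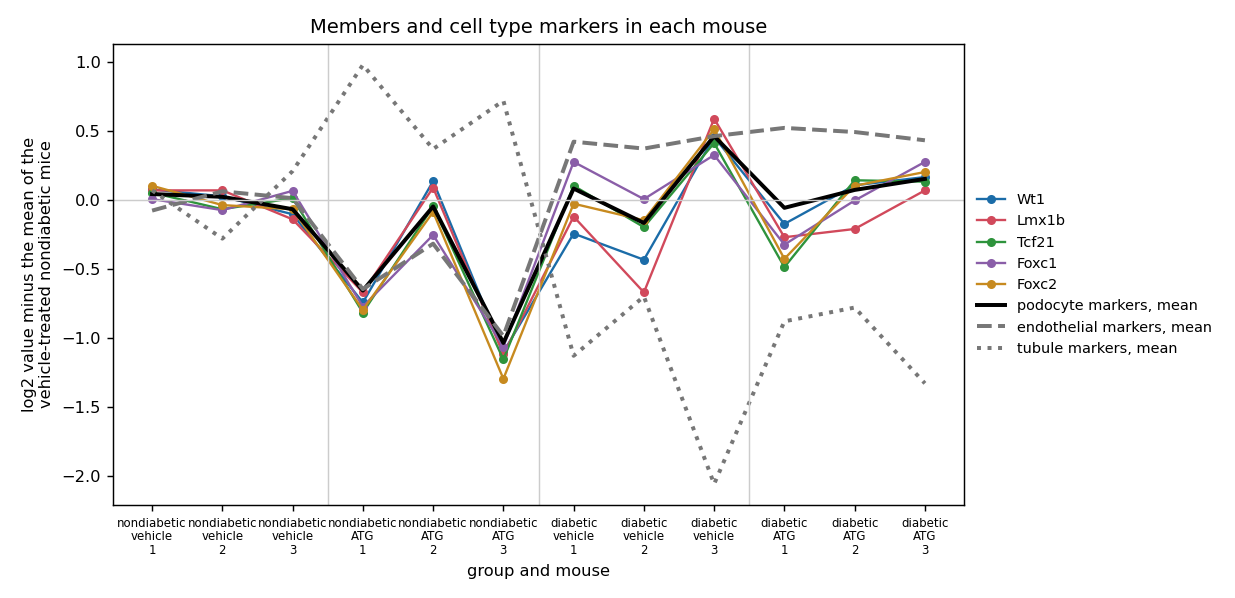
The 5 members (coloured lines) and the mean of the podocyte, endothelial and tubule marker lists (black and grey lines) in each of the 12 mice, as log2 value minus the mean of the vehicle-treated nondiabetic mice. Vertical lines part the groups, and lines only join the points of 1 gene. The members lie near the podocyte mean in most mice, with Lmx1b below it in vehicle-treated diabetic mouse 2, and the tubule mean is high where they are low in ATG-treated nondiabetic mice 1 and 3.

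Markers of the other cell types moved between groups as well. The summed level of the 26 podocyte markers was 865 to 944 k (kilo) in vehicle-treated nondiabetic mice, 411 to 943 k with ATG, and 873 to 1460 k and 944 to 1050 k in diabetic mice with vehicle and ATG. That of 35 tubule markers was 491 to 596 k and 697 to 1030 k in nondiabetic mice with vehicle and ATG, and 116 to 331 k and 236 to 271 k in diabetic mice. In diabetes 19 of the 35 tubule markers were called lower with vehicle and 32 with ATG. Of 20 endothelial markers, 12 and 20 were called higher in the same comparisons, and 13 were called lower with ATG in nondiabetic mice. Of 15 mesangial markers, 12 were called lower in that comparison and 12 higher for diabetes with ATG, and for diabetes with vehicle 2 were called higher and 2 lower, with a median of -0.23. Of 7 parietal markers none was called with ATG in nondiabetic mice, and 1 was called higher and 3 lower for diabetes with ATG. Of 16 leukocyte markers, 8 and 7 were called higher for diabetes with vehicle and ATG. Correlations of the members with the tubule mean over 12 mice ran from -0.775 for Foxc1 to -0.603 for Lmx1b. Those with the endothelial mean ran from 0.575 for Lmx1b to 0.842 for Foxc1, and those with the mesangial mean from 0.655 to 0.817 for the same genes. With the tubule mean as a covariate no member was called, and the calls over all genes for diabetes with ATG went from 6585 to 195. The tubule mean ran from 12.19 to 13.45 in nondiabetic mice and from 10.41 to 11.77 in diabetic mice, without overlap. This covariate and diabetes can thus hardly be separated, here or in the lists below, and nothing is read from the lost calls.

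The 5 transcripts also followed each other. Tcf21 and Foxc2 were closest, with r of 0.988 over 12 mice, and Foxc2 was the gene most like Tcf21 among all listed genes. Wt1 was closest to Lmx1b among the members (0.955), and Foxc1 to Tcf21 (0.955). The lowest value was that of Lmx1b with Foxc1, 0.780. Outside the members, Wt1 was most like Cdc14a (0.990), Clic5 (0.987) and St6gal1 (0.986), of which CLIC5 is a chloride channel family protein of podocyte foot processes. Lmx1b was most like Mgat5 (0.995), Nebl (0.982) and Fnbp1l (0.976), and Tcf21 most like Fndc5 (0.983), Ddn (0.982) and Pbx2 (0.976). Foxc1 was most like Ptger4 (0.975), a prostaglandin E2 receptor, the forkhead gene Foxd2 (0.973) and Plekhh2 (0.970). Foxc2 was most like Ddn (0.992), which encodes dendrin of the slit diaphragm, Zfp462 (0.985) and Synpo (0.983), which encodes synaptopodin. Clic5, Ddn and Synpo are also in the podocyte marker list. All 12 mice share the low ATG-treated nondiabetic libraries, and these correlations have no p.

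Wt1 and Lmx1b each have a noncoding RNA that starts beside them on the opposite strand. Wt1os, at chr2:105076538-105126510 on the minus strand, starts 19 bases before Wt1. It was at 9.86, 9.77 and 9.76 in vehicle-treated and 9.32, 10.00 and 8.82 in ATG-treated nondiabetic mice, and at 9.58, 9.23 and 10.19 and at 9.84, 10.10 and 10.00 in diabetic mice with vehicle and ATG. Its order over the mice was close to that of Wt1, with r of 0.959, at rank 50 among all genes. C130021I20Rik, at chr2:33641193-33645663 on the plus strand, starts at base 156 of the promoter window printed above, 95 bases upstream of the transcript start that this window is built on. The RefSeq span of Lmx1b, chr2:33560965-33641208, reaches past that point, so on RefSeq the genes overlap and reads there could not be told apart without strand. The span listed with the deposited values, chr2:33564536-33640511, ends 682 bases short of that start. C130021I20Rik was at 10.87, 10.91 and 10.58 in vehicle-treated and 9.84, 10.70 and 9.35 in ATG-treated nondiabetic mice. In diabetic mice it was at 10.69, 10.40 and 11.07 with vehicle and 10.59, 10.97 and 10.86 with ATG. Its correlation with Lmx1b was 0.897, at rank 235.

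**Figure D5:**
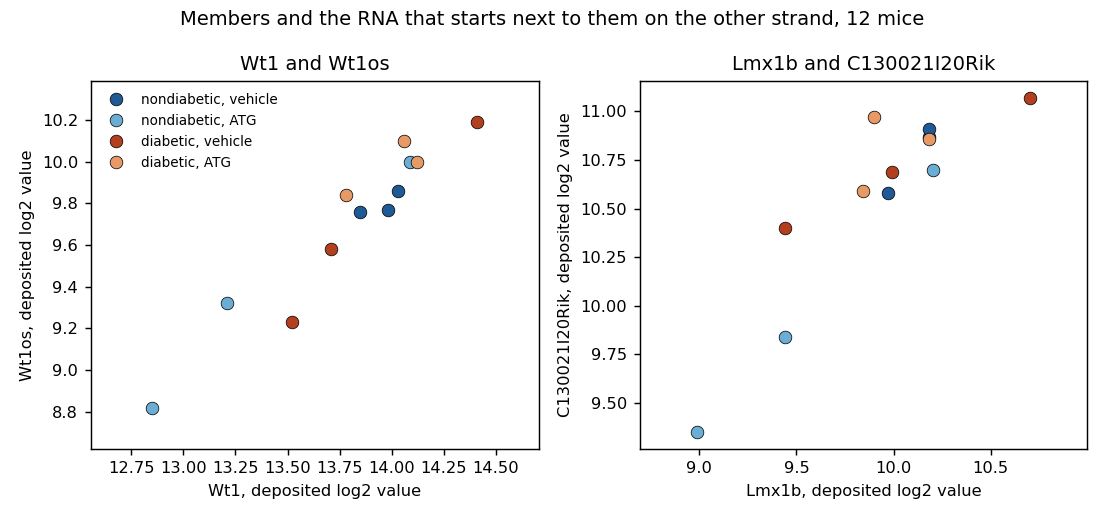
Deposited log2 value of Wt1os against Wt1 and of C130021I20Rik against Lmx1b, with 1 point a mouse, coloured by group. In both panels the points rise together, and the 2 lowest points on the vertical axis in the Lmx1b panel are ATG-treated nondiabetic mice.

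For diabetes in ATG-treated mice, C130021I20Rik was called higher at 0.84 (SE 0.28, adjusted p = 0.0319), while Lmx1b was at 0.43 and not called. Wt1os was at 0.60 (SE 0.28, adjusted p = 0.0934), close to the 0.60 of Wt1. With ATG in nondiabetic mice, Wt1os was at -0.42 (adjusted p = 0.306) and C130021I20Rik at -0.82 (adjusted p = 0.0988). Other forkhead genes lie near Foxc1 and Foxc2. Foxl1, downstream of Foxc2, correlated with it at 0.819 and was not called in any comparison. Foxq1, on the same chromosome as Foxc1, correlated with Foxc1 at -0.804 and was called lower for diabetes in ATG-treated mice, at -1.07 (SE 0.31, adjusted p = 0.0165).

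Transcripts for proteins that work with the members were counted next. Among 16 genes for partners, 3 were called higher for diabetes with vehicle, 10 for diabetes with ATG, and 3 lower for ATG in nondiabetic mice, beside 10.2%, 25.9% and 4.51% of all genes. The medians were 0.08, 0.31 and -0.19, beside 0.01, 0.05 and -0.04 over all genes. Tcf3, an E protein that pairs with TCF21, rose by 0.38 (SE 0.063, adjusted p = 0.00522) in vehicle-treated and by 0.47 (SE 0.063, adjusted p = 0.000392) in ATG-treated diabetic mice. Tcf3 was at 10.75 ± 0.078 and 11.13 ± 0.081 (SD, n = 3) in nondiabetic and diabetic mice with vehicle. Ldb1, the adaptor that binds LIM-homeodomain proteins, rose by 0.24 (SE 0.072, adjusted p = 0.0425) with vehicle and by 0.38 (adjusted p = 0.00219) with ATG. Ssbp4, of the single-stranded DNA binding proteins that stabilise LDB1, rose by 0.48 (adjusted p = 0.0148) with vehicle. Fhl2, a LIM-only cofactor of WT1, was called higher for diabetes with ATG (1.12, SE 0.15, adjusted p = 0.000367) and lower for ATG in nondiabetic mice (-0.97, SE 0.15, adjusted p = 0.00828). Wtip, a WT1-interacting protein of the podocyte junction, was called in the same comparisons, at 0.68 (adjusted p = 0.00188) and -0.51 (adjusted p = 0.0419). The partners are expressed in many cell types. With the tubule mean added to the model none of the 16 was called in any of these comparisons, and with the podocyte marker mean 3, 6 and 0 were called in the stated directions. Without mouse 2 of the ATG-treated nondiabetic group 6 partners were called lower for ATG in nondiabetic mice. In that fit 3531 of all 14096 genes were called in either direction. Without mouse 3 of the ATG-treated nondiabetic group 1 partner was called lower.

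Among 24 genes reported as targets of WT1, LMX1B, TCF21 or the FOXC proteins, 2 were called higher for diabetes with vehicle, 11 for diabetes with ATG, and 2 lower for ATG in nondiabetic mice. Over all genes the shares were 10.2%, 25.9% and 4.51%, so the first and last counts were near the background. The medians were 0.15, 0.65 and -0.56. These targets include 13 of the 26 podocyte markers, and of the other 11, 6 were called higher for diabetes with ATG, with a median of 0.65. Abra, an actin-binding protein named among LMX1B targets, rose by 1.52 (SE 0.25, adjusted p = 0.00522) in diabetes with vehicle, from 7.18 ± 0.31 to 8.70 ± 0.20 (SD, n = 3), and by 1.22 (adjusted p = 0.00315) with ATG. Arl4c, a small GTPase also named among LMX1B targets, rose by 0.71 (SE 0.16, adjusted p = 0.0151) with vehicle. With ATG in diabetic mice, Abra was at -1.09 (SE 0.25, unadjusted p = 0.00118, adjusted p = 0.804 in limma) and Arl4c at -0.38 (adjusted p = 1). Actn4, the podocyte actin crosslinker, and Nes, the intermediate filament nestin, were called higher for diabetes with ATG, at 0.65 (adjusted p = 0.00322) and 1.07 (adjusted p = 0.00392). Igfbp5 and Pdgfa were called lower for ATG in nondiabetic mice, at -0.74 (SE 0.17, adjusted p = 0.0370) and -0.47 (SE 0.11, adjusted p = 0.0393). Abra and Arl4c were thus called higher in a comparison in which Lmx1b was at -0.07. Without mouse 2 of the ATG-treated nondiabetic group 22 of the 24 were called higher for diabetes with ATG. For ATG in nondiabetic mice 18 were called lower in that fit. Over all 14096 genes it called 7451 and 3531 in either direction, against 6585 and 736 with all mice. Without mouse 3 of the ATG-treated nondiabetic group the counts of targets were 6 and 0. With the podocyte mean added to the model 3 were called higher and 3 lower for diabetes with ATG. With the tubule mean added instead, 0 of the 24 were called for diabetes with ATG, and 0 higher and 1 lower with vehicle.

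Of 29 other transcription regulators known from podocytes, 1 was called higher and 3 lower for diabetes with vehicle, 8 higher and 8 lower for diabetes with ATG, and 2 lower for ATG in nondiabetic mice. Over all genes 10.2% were called higher and 8.63% lower with vehicle and 25.9% and 20.8% with ATG, so the counts for diabetes with ATG were near the background. For ATG in nondiabetic mice 4.51% of all genes were called lower. The medians were -0.11, 0.19 and -0.16. Srf, serum response factor of actin genes, rose by 0.70 (SE 0.14, adjusted p = 0.0101) with vehicle and 0.79 (adjusted p = 0.00158) with ATG. Vdr, the vitamin D receptor, was called lower in both, at -0.75 (SE 0.16, adjusted p = 0.0115) and -1.12 (adjusted p = 0.000529), as were Etv1, at -0.64 and -0.74 (adjusted p = 0.00913 and 0.00122), and Ppargc1a, the mitochondrial coactivator, at -1.23 and -1.14 (adjusted p = 0.0196 and 0.0106). Vdr and Ppargc1a are also expressed in tubules, and tubule markers were lower in the same comparisons, but the part of tubule RNA in these 2 values was not tested. With the tubule mean added to the model 0 of the 29 were called higher and 1 lower for diabetes with vehicle, 1 higher and 0 lower with ATG, and 0 for ATG in nondiabetic mice, while the calls over all genes for diabetes went from 2659 to 619 and from 6585 to 195. With the podocyte mean added instead, 2 were called higher and 7 lower with vehicle, 6 higher and 2 lower with ATG, and 0 for ATG in nondiabetic mice. Klf6 and Rara were called higher for diabetes with ATG, at 0.82 and 0.55 (adjusted p = 0.00165 and 0.000588). Osr2, a zinc finger gene, was called lower there, at -1.15 (SE 0.29, adjusted p = 0.0087). Without mouse 2 of the ATG-treated nondiabetic group 14 of the 29 were called higher for diabetes with ATG. For ATG in nondiabetic mice 9 were called lower in that fit. Over all 14096 genes it called 7451 and 3531 in either direction. Without mouse 3 of the ATG-treated nondiabetic group the counts of regulators were 6 and 0.

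Klf4, a zinc finger factor that podocytes use to keep their epithelial genes on, had the largest gap between the ATG effects in this list. Its group means were 11.78 ± 0.18 and 10.82 ± 0.55 (SD, n = 3) in nondiabetic mice with vehicle and ATG, and 11.48 ± 0.20 and 12.07 ± 0.28 in diabetic mice. It was called lower for ATG in nondiabetic mice (-0.96, SE 0.24, adjusted p = 0.0452) and was at 0.59 for ATG in diabetic mice (SE 0.24, unadjusted p = 0.0326, adjusted p = 1 in limma). The difference between these effects was 1.54 (SE 0.34, adjusted p = 0.072). Zhx2 was called lower with ATG in nondiabetic mice, at -0.35 (SE 0.079, adjusted p = 0.0346).

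Forkhead and LIM-homeobox relatives of the members were listed for 21 of 33 genes. For diabetes 2 were called higher and 2 lower with vehicle, and 5 higher and 6 lower with ATG, while none was called for ATG in nondiabetic mice. The counts for diabetes were near the shares of all genes, 10.2% and 8.63% with vehicle and 25.9% and 20.8% with ATG. Lhx6 rose by 0.95 and 1.12 (SE 0.19 for both, adjusted p = 0.0094 and 0.00115) and Foxm1, a forkhead factor of dividing cells, by 0.86 and 1.16 (adjusted p = 0.0142 and 0.00114) in diabetes with vehicle and ATG. Lhx1, which tubule segments and nephron precursors express, was called lower, at -1.42 and -1.43 (SE 0.39 for both, adjusted p = 0.0294 and 0.0121). Foxn3 was called lower in both as well, at -0.43 and -0.34 (adjusted p = 0.0244 and 0.028). Foxd2, whose course over the mice was among those most like Foxc1, was at -0.73 (SE 0.26, adjusted p = 0.101) for ATG in nondiabetic mice. With the tubule mean added to the model none of the 21 was called for diabetes with ATG, and 0 higher and 1 lower with vehicle. For diabetes with ATG 3 were called higher and 1 lower with the podocyte mean added, and 4 and 2 without mouse 3 of the ATG-treated nondiabetic group. Without mouse 2 of the ATG-treated nondiabetic group 8 relatives were called lower for ATG in nondiabetic mice. In that fit 3531 of all 14096 genes were called in either direction.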

How the data were processed

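Glomerular poly-A RNA of 12 mice was sequenced at the Beijing Genomics Institute. The labels also describe dissociation and cell sorting, which the study's methods do not, and the samples were treated as whole glomeruli. The authors deposited log2 values per gene on mm10, which are reads multiplied by 1 factor per library. On the linear scale 83.4% to 84.0% of values under 2000 reads were whole within 0.02 reads of a step of 1.00 to 1.27, which gave the read numbers. Per the submitters' processing notes limma was used. The aligner and counter are not given in the sources used here.

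limma 3.58.1 (R 4.3.3, trended prior variance) was fitted to 14096 genes in 1 model of 4 groups, with Benjamini-Hochberg adjustment over all genes and calls at 0.05. Exact permutation tests over mice were two-sided. The script was tested on simulated data. The title number served as the replicate block in an alternative fit. Named genes are the members, up to 4 genes per list, comparison and direction with the lowest p among those called (the lowest 2 where none was), and the 3 genes most correlated with each member. The members, gene lists and rules were chosen with earlier results of these data known. The alternative that subtracts the podocyte marker mean and the list counts under alternatives were added after the data were seen. Promoter windows are from RefSeq (GRCm38.p6). Figures used matplotlib 3.10.9. Some genes that meet the rule for named genes are not reported here.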

Additional observations from a re-analysis of the deposited data

How the results depend on the processing

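The 5 members' fold changes kept their direction and side of the threshold in 478 of 545 recalculations under 22 alternatives. They were reversed in 46, of which 1 was called, lost a call in 9 and gained one in 12. The minimum of 10 reads, median-ratio scaling, limma-voom and an untrended prior variance changed no member's direction or call. With both unnumbered mice left out, with only the groups compared, with the replicate block, with the tubule covariate and with the podocyte mean subtracted, 0 members were called for diabetes with ATG. Where a direction changed, the cause was not tested.

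With the replicate block Foxc1 was at 0.50 for diabetes with ATG (adjusted p = 0.0931). The block reversed Tcf21 (-0.14) and Foxc2 (-0.21) for diabetes with vehicle, where Wt1 was at -0.40, Lmx1b at -0.46 and Foxc1 at 0.03. For diabetes with ATG Wt1, Lmx1b, Tcf21 and Foxc2 were at 0.28, 0.04, 0.36 and 0.37. Number 3 occurred only in diabetic mice, and the unnumbered mice, all nondiabetic, formed a block of their own. The mean effect of diabetes in this fit therefore came from mice 1 and 2 alone. Same-numbered mice did not deviate together in general (r of -0.59 to 0.339), so the numbers were not taken as pairs.

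With the podocyte mean added to the model 1 member was called for diabetes with vehicle, where Tcf21 and Foxc2 were both at -0.04. For diabetes with ATG, Wt1 was at -0.24, Lmx1b at -0.49, Tcf21 at -0.12 and Foxc2 at -0.10. Lmx1b was at 0.03 for ATG in diabetic mice, and Wt1 and Lmx1b at 0.20 and 0.27 for ATG in nondiabetic mice. The difference between the ATG effects was -0.003 for Wt1, -0.24 for Lmx1b, -0.08 for Tcf21 and -0.05 for Foxc2.

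With the tubule mean added to the limma model the largest moves for diabetes with vehicle were those of Lmx1b and Wt1. Lmx1b was at -1.21 (SE 0.31, adjusted p = 0.0546) and Wt1 at -0.98 (SE 0.34, adjusted p = 0.114). In the same comparison Tcf21, Foxc1 and Foxc2 were at -0.53, -0.21 and -0.61. For diabetes with ATG Wt1, Lmx1b, Tcf21 and Foxc2 were at -0.58, -1.05, -0.23 and -0.26. For ATG in diabetic mice Lmx1b was at 0.19 and Foxc2 at 0.01, and for ATG in nondiabetic mice Lmx1b was at 0.04.

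With the podocyte marker mean subtracted Tcf21 and Foxc2 were at -0.02 and -0.01 for diabetes with vehicle, and Wt1, Lmx1b and Tcf21 at -0.04, -0.21 and -0.04 for diabetes with ATG. Lmx1b was at 3e-04 for ATG in diabetic mice, and Wt1 and Lmx1b both at 0.01 for ATG in nondiabetic mice. The difference between the ATG effects was -0.01 for Lmx1b and Tcf21 and -0.04 for Foxc1.

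With 4 in place of 26 markers subtracted, Wt1, Lmx1b, Tcf21 and Foxc2 were at -0.33, -0.33, -0.15 and -0.14 for diabetes with vehicle. For diabetes with ATG Wt1, Lmx1b and Foxc1 were at -0.20, -0.37 and -0.12. Wt1 was at 0.24 for ATG in diabetic mice, and Lmx1b, Tcf21 and Foxc2 at 0.11, 0.01 and -0.04 for ATG in nondiabetic mice.

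Leaving out 1 mouse at a time gave 0 to 4 members called for diabetes with ATG and 0 to 5 for ATG in nondiabetic mice. The fold change for diabetes with vehicle ranged from -0.34 to 0.11 for Wt1, -0.40 to 0.23 for Lmx1b, -0.05 to 0.26 for Tcf21 and -0.09 to 0.24 for Foxc2. For diabetes with ATG it ranged from 0.33 to 0.95 for Wt1, 0.16 to 0.76 for Lmx1b, 0.36 to 0.91 for Tcf21, 0.49 to 0.90 for Foxc1 and 0.40 to 1.00 for Foxc2. The difference between the ATG effects ranged from 0.20 to 1.02 over the 5 members. For ATG in nondiabetic mice the fold change ranged from -0.92 to -0.30 for Wt1, -0.89 to -0.29 for Lmx1b, -0.98 to -0.43 for Tcf21, -0.92 to -0.51 for Foxc1 and -1.04 to -0.44 for Foxc2. For ATG in diabetic mice it ranged from -0.08 to 0.37 for Wt1, -0.37 to 0.26 for Lmx1b, -0.33 to 0.03 for Tcf21, -0.37 to -0.07 for Foxc1 and -0.28 to 0.05 for Foxc2.

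Over all genes, the 2659 calls for diabetes with vehicle became 1375 with the block, 4236 and 619 with the podocyte and tubule covariates, 62 with the podocyte mean subtracted and 801 to 3357 with 1 mouse left out. The 6585 for diabetes with ATG became 2706 and 195 with the covariates and 4314 without the unnumbered mice. The 736 for ATG in nondiabetic mice became 44 and 47 with the covariates, 8 without the unnumbered mice, 0 with only the groups compared or the podocyte mean subtracted, and 60 to 3531 with 1 mouse left out. The 77 for the difference between the ATG effects became 8 with the block, 19 without the trend, 34 and 38 with the covariates, 6 without the unnumbered mice, 0 with the podocyte mean subtracted and 6 to 770 with 1 mouse left out.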
